A study of Homo sapiens with 6 samples.

Results

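LETN is the long non-coding RNA gene RP11-196G18.22, which lies inside a cluster of histone genes on the long arm of chromosome 1. It is described here together with 7 of its histone neighbors, namely H3C14, H3C15, H4C14, H4C15, H2AC20, H2AC21 and H2BC21. These 8 genes were taken by their stable gene IDs from a table of 60203 rows, and all 8 were present. The study labels its 6 RNA libraries as HUH7, an established human hepatocellular carcinoma line. The labels list 2 libraries each for a control siRNA (siNC), an siRNA against LETN (siLETN) and an siRNA against NPM1 (siNPM1). All were collected 48 h after transfection, and nothing in the labels says whether the 2 libraries of an siRNA came from separate cultures. The value columns of the table carry numbers from 1 to 6 that match no sample label, so they are called libraries 1 to 6 and no siRNA was assigned to any of them. Therefore no comparison between siRNAs is made and no p-value is given. The values below show how the 8 genes differ across the libraries.

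Core histones package DNA into nucleosomes, in which dimers of H2A with H2B sit around a tetramer of H3 and H4. Most of their genes are replication-dependent. They are transcribed mainly in S phase, as clustered and repeated copies, and their mRNAs usually end in a conserved stem-loop in place of a poly(A) tail. Libraries made by removing rRNA, as these were, keep such mRNAs. NPM1, the protein partner of LETN in the study, is a nucleolar histone chaperone.

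The columns held from 8034137 to 10224212 counts, and levels are given as CPM (counts-per-million), the count of a gene scaled to the total of its column. Each interval is the exact (Clopper-Pearson) 95% interval of a gene's share of its library, and covers counting error only, since reads without molecular identifiers can be copies of 1 molecule. Across genes with a median of at least 1 CPM, libraries 1 and 2, libraries 3 and 4, and libraries 5 and 6 resembled each other most (Pearson r of log2(CPM + 0.5) of 0.994 in each case, against 0.955 to 0.976 for the other pairs). The mean chi-square per gene between the libraries of these 3 pairs was 1.39 to 1.74, so they differed by more than counting error. Copied reads can also raise this value, so it does not show whether the libraries were separate samples. Each was kept as a separate library. The markers of the labeled cell type were met only in part. Of 18 hepatocyte and hepatoma markers, 7 had a mean of at least 10 counts. AFP, APOB, FGA, FGB and FGG had 0 counts in all 6 libraries, and ALB, the main plasma protein gene of hepatocytes, had at most 0.124 CPM. The plasma protein genes APOA1, TTR, TF and AHSG had at most 0.310 CPM each. In contrast, 2 other plasma protein genes were counted, SERPINA1 with 74.3 to 145 CPM and APOH with 17.8 to 31.6 CPM. The hepatocyte transcription factor gene HNF4A had 75.2 to 115 CPM and the epithelial keratin gene KRT18 had 1740 to 2504 CPM. The libraries are therefore referred to as those labeled HUH7. Markers of fibroblasts, endothelium and red cells summed to at most 1.38, 0.243 and 0 CPM, respectively. Of the leukocyte markers, PTPRC, CD3E and CD68 had at most 0.206 CPM each, whereas LYZ, the lysozyme gene, had 1273 to 1769 CPM.

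**Figure D1:**
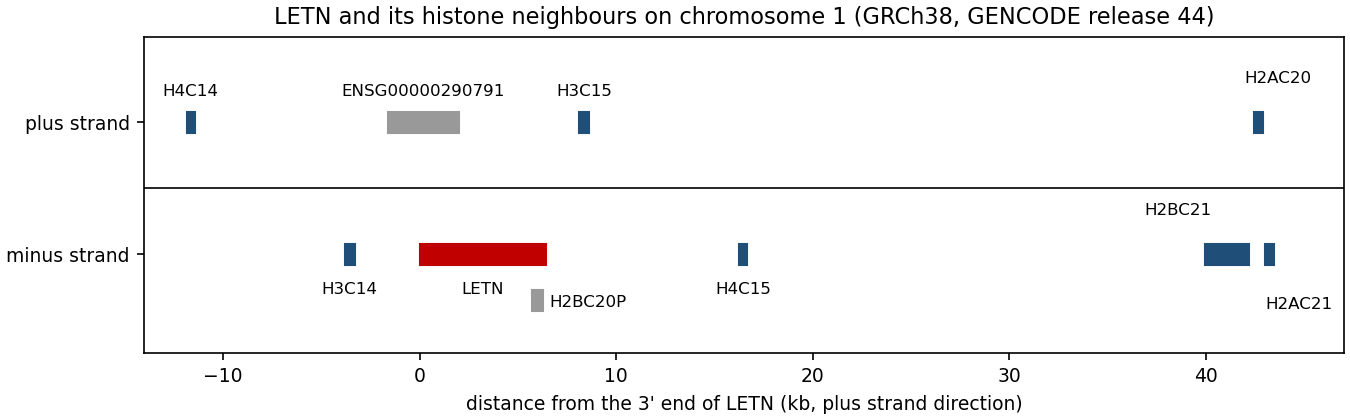
Positions of LETN (red), the 7 histone neighbors (blue) and the overlapping genes H2BC20P and ENSG00000290791 (gray) on the plus and minus strands, drawn to scale in kb from the 3′ end of LETN (x axis), with H2BC20P set below LETN because it lies inside it. H3C14 and H4C14 lie on one side of LETN, and H3C15 and H4C15 lie on the other in the opposite orientation.

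The positions given here are those of GENCODE release 44 on GRCh38, whereas the table was made on hg19, and no coordinate was converted between the builds. In that release LETN has the single-exon transcript ENST00000564237.2 of 6440 nt, whose 5′ end is at 149850937 and whose 3′ end is at 149844498 on the minus strand of chromosome 1. H3C14 lies 3289 bp below its 3′ end on the same strand, and H3C15 lies 1670 bp above its release 44 5′ end on the opposite strand. The study's own 5′ end of LETN lies farther from H3C15. H4C14 and H4C15 lie farther out, 7634 bp beyond H3C14 and 7638 bp beyond H3C15. The other members form a compact group 23299 bp beyond H4C15. There H2BC21 (149884459 to 149886682, minus strand) and H2AC20 (149886918 to 149887411, plus strand) start 235 bp apart and point away from each other. H2AC21 (149887469 to 149887965, minus strand) faces H2AC20, and 57 bp separate their 3′ ends. The 8 genes span 55309 bp from H4C14 to H2AC21.

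The sequences upstream of H4C14 and H3C14 are shown because they are identical or nearly so within each duplicated pair, the H4 genes and the H3 genes. The other histone members are called unique. The stretch between H2BC21 and H2AC20 is shown because these divergent genes share it. The sequences come from RefSeq (GRCh38.p14), in which 7 of the 8 members were matched, all but LETN. Capitals mark TATAAA (the TATA box), CCAAT and ATTTGCAT (the octamer found in many H2B promoters), each searched on both strands. Each line reads 5′ to 3′, the first on the plus strand, the second on the plus strand upstream of H4C14, and the third on the minus strand upstream of H3C14.
chr1:149886683-149886917, between the starts of H2BC21 and H2AC20: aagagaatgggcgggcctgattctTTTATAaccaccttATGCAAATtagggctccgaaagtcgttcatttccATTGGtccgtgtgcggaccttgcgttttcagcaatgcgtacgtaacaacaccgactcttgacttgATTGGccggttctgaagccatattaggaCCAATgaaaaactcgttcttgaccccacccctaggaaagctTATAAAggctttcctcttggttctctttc
chr1:149832407-149832656, upstream of H4C14: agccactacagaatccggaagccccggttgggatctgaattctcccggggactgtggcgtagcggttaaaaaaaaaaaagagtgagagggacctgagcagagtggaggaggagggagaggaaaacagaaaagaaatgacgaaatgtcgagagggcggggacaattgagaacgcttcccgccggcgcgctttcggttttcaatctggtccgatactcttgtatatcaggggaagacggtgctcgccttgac
chr1:149841209-149841458, upstream of H3C14: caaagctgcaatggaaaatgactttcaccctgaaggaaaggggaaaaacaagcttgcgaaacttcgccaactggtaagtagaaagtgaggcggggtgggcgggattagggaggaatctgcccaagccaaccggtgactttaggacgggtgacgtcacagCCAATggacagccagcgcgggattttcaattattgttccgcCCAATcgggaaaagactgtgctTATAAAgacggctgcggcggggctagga
The first stretch is shared by a pair of genes that face away from each other. It holds a TATAAA motif near each end, 1 octamer and 3 CCAAT motifs. The windows of 300 bases that reach 50 bases into H2AC20 and into H2BC21 overlap over this stretch and hold the same motif counts. The window of H2AC21 holds 1 TATAAA motif, 4 CCAAT motifs and 1 octamer. The octamer was found in 1.77% of all 35116 RefSeq promoter windows of this length, TATAAA in 11.5% and CCAAT in 34.6%. The H4C14 window held 0 copies of each motif. It is identical over all 300 bases to that of H4C15. The windows of H3C14 and H3C15 share an unbroken run of 296 bases, with 1 TATAAA and 2 CCAAT motifs in each. A match of this kind is a description of the letters and not a measured binding site.

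The 3 unique histone genes were well counted and LETN was moderately counted. H2AC20, which encodes an H2A protein, had 153 CPM in library 1, 147 in library 2, 76.8 in library 3, 75.1 in library 4, 45.8 in library 5 and 45.9 in library 6. Libraries 1 and 2 were high, 3 and 4 were intermediate and 5 and 6 were low, and the counting intervals of these pairs did not overlap with one another. The highest level was 3.35 times the lowest (95% counting interval 3.01 to 3.73). H2AC21, its convergent neighbor and another H2A gene, had 53.8, 47.4, 25.4, 22.6, 14.9 and 11.7 CPM in libraries 1 to 6. It ran through the same steps, with a ratio of highest to lowest of 4.61 (3.68 to 5.81), and again the intervals overlapped within each of the pairs named above and not between them. H2BC21 encodes an H2B protein, the partner of H2A in the nucleosome. It had 124, 129, 61.4, 59.3, 43.9 and 45.9 CPM in libraries 1 to 6. Its steps were the same, and its ratio of highest to lowest was 2.94 (2.64 to 3.29).

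LETN had 161 counts in library 1, 217 in library 2, 87 in library 3, 112 in library 4, 152 in library 5 and 145 in library 6. These counts correspond to 20.04 CPM (95% counting interval 17.1 to 23.4), 24.3 (21.2 to 27.8), 9.99 (8.002 to 12.3), 11.6 (9.52 to 13.9), 14.9 (12.6 to 17.4) and 17.6 (14.9 to 20.8). The highest levels were in libraries 2 and 1 and the lowest in libraries 3 and 4, with libraries 6 and 5 between them. Each library overlapped its neighbor in this order, but the interval of library 2 lay above those of libraries 3 to 6, and those of libraries 3 and 4 lay below those of libraries 1 and 6. The highest level was 2.44 times the lowest (1.89 to 3.16). The median of 16.3 CPM was above that of 60.9% of the 20628 genes with a mean of at least 1 count, as compared with 84.5% for H2AC20, 81.2% for H2BC21 and 66.1% for H2AC21.

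**Figure D2:**
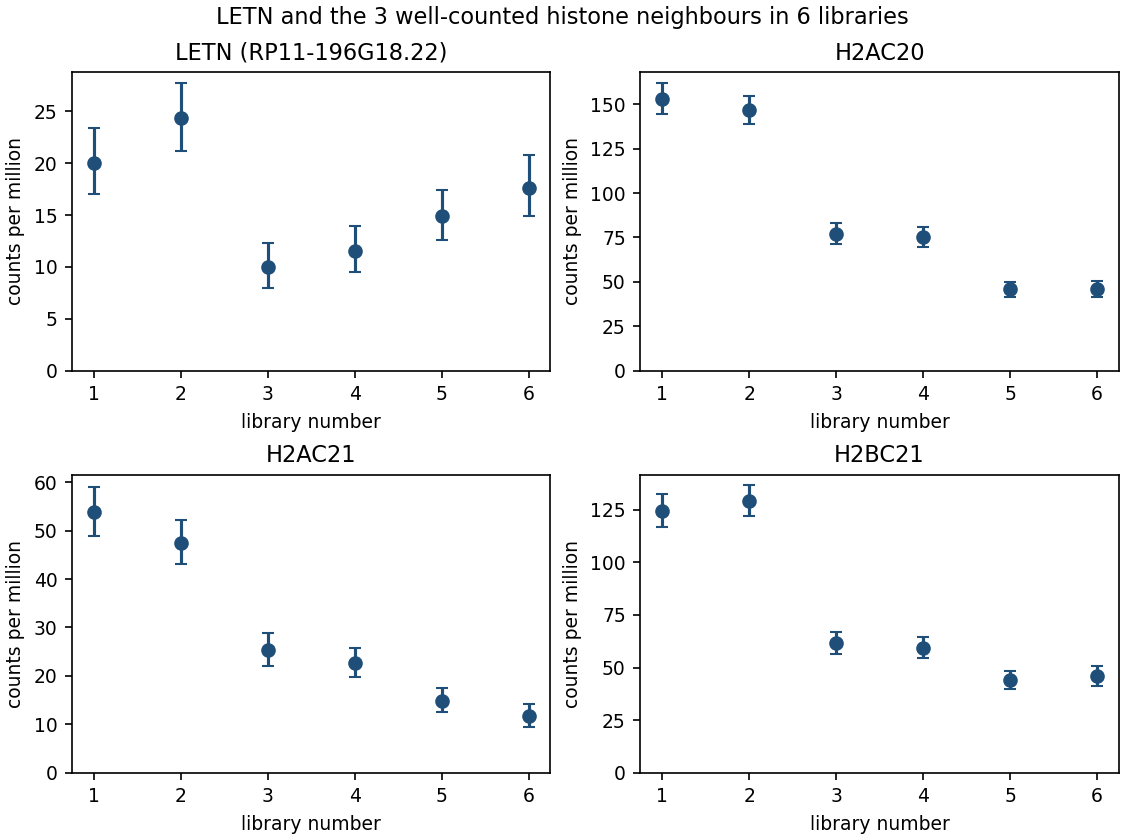
CPM (y axis, from 0) of LETN, H2AC20, H2AC21 and H2BC21 in libraries 1 to 6 (x axis), with bars for the exact 95% counting interval. The histone genes step down from libraries 1 and 2 to 3 and 4 and to 5 and 6, whereas LETN is lowest in library 3 (9.99 CPM) and reaches 17.6 CPM in library 6.

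Of the 8 members, 4 had a mean of at least 10 counts, namely LETN, H2AC20, H2AC21 and H2BC21, and all 4 of these had a highest level at least 2 times the lowest. Among all 13489 genes with such a mean count, 35.1% did so, and the median ratio was 1.71. The order in which libraries 1 and 2 both exceeded 3 and 4, which both exceeded 5 and 6, was noticed in the data. It held for 3 of the 4, all but LETN, and for 15.6% of all genes with a mean of at least 10 counts. These are bulk RNA samples, in which fewer cells expressing a gene and less RNA per cell cannot be told apart.

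Per kilobase of the release 44 transcripts, H2AC20 had the highest level of these genes, with a median of 154 CPM per kb (92.7 to 310 across libraries). H2AC21 followed with 48.3 (23.5 to 108), and H2BC21, whose transcript of 2224 nt is much longer than the 494 nt of H2AC20 and the 497 nt of H2AC21, with 27.2 (19.7 to 58.1). In library 6 the counting intervals of H2AC21 (19 to 28.7 CPM per kb) and H2BC21 (18.6 to 22.8) overlapped, and their order there was within counting error. The place of H2BC21 rests on its release 44 transcript of 2224 nt, and no shorter form was tried. The place of LETN also depends on the length of the model. The table lists LETN under the ID ENSG00000261716, version 1. Release 44 instead gives this ID, at a later version, to the histone pseudogene H2BC20P, which lies within the release 44 LETN exon on the same strand, and gives LETN the ID ENSG00000290792. With the 6440 nt of the LETN transcript the median was 2.52 CPM per kb, and with the 580 nt of H2BC20P it would be 28.0. The study places the 5′ end of LETN nearer to its 3′ end than this transcript does, so its LETN lies between these lengths, and H2BC20P falls outside it. The value for 580 nt is therefore not a level of the study's LETN, and a level at the study's own length was not computed. The study names an Ensembl annotation for mapping, which was not analysed here, and the length of the LETN model in the counting is not given in the sources used here. A lncRNA gene on the opposite strand, ENSG00000290791, overlaps the 3′ part of LETN. The library kit keeps strand, but the strand setting of the counting is not given in the sources used here, so reads of that gene and of LETN cannot be told apart.

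Ratios of counts between genes of the same library need no scaling, and they set LETN apart from the histone genes in libraries 5 and 6. This is not particular to LETN, since any gene that falls less than the histone genes has a rising ratio to them. OTUD7B, a non-histone gene beside the cluster, had 66.7 CPM in library 1 and 65.1 in library 6, whereas H2AC20 had 153 and 45.9. The ratio of LETN to H2AC20 was 0.131 in library 1, 0.166 in library 2, 0.13 in library 3, 0.154 in library 4, 0.325 in library 5 and 0.385 in library 6. Libraries 1 to 4 overlapped in their counting intervals, and libraries 5 and 6 (0.269 to 0.391 and 0.315 to 0.467) lay above all of them. The ratio of LETN to H2AC21 ranged from 0.373 to 0.513 in libraries 1 to 4, and was 1.0 in library 5 and 1.51 in library 6. The ratio of LETN to H2BC21 ranged from 0.161 to 0.195 in libraries 1 to 4, with 0.339 in library 5 and 0.385 in library 6. In contrast, libraries 3 and 4, in which LETN was lowest, had ratios within the range of libraries 1 and 2 or within counting error of it, since the histone genes were also lower there.

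Among themselves the histone genes kept closer proportions. The ratio of H2AC20 to H2AC21 stayed between 2.85 and 3.93, a range of 1.38-fold, and that of the divergent pair H2AC20 and H2BC21 between 1.0 and 1.27, a range of 1.27-fold. H2BC21 to H2AC21 varied from 2.31 in library 1 to 3.93 in library 6, a range of 1.7-fold, and the intervals of these libraries (2.06 to 2.59 and 3.13 to 4.97) did not overlap. Each ratio of LETN to a histone gene had a wider range, from 2.39-fold with H2BC21 to 4.05-fold with H2AC21.

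**Figure D3:**
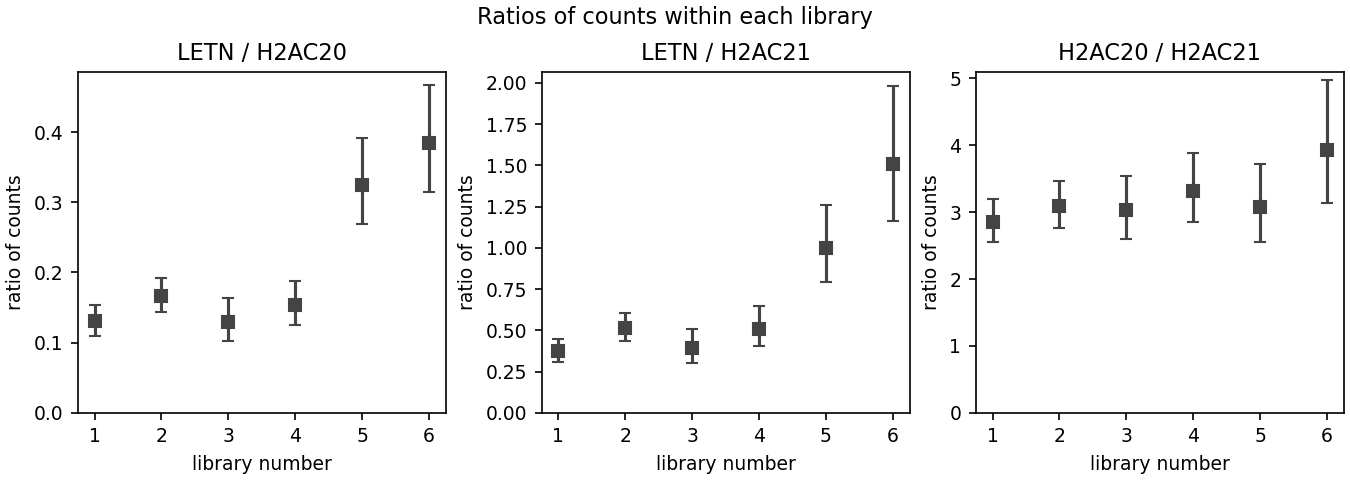
Ratio of counts (y axis, from 0) of LETN to H2AC20, LETN to H2AC21 and H2AC20 to H2AC21 within libraries 1 to 6 (x axis), with bars for the exact 95% counting interval. Both LETN ratios are highest in libraries 5 and 6, whereas H2AC20 to H2AC21 stays between 2.85 and 3.93.

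The 4 H3 and H4 genes, which form pairs of near-identical copies, received almost no counts. H3C14 and H3C15 encode histone H3, and H4C14 and H4C15 encode histone H4. H3C14 had 6, 7, 5, 2, 1 and 2 counts in libraries 1 to 6, and H3C15 had 1, 2, 1, 0, 0 and 0. For the zeros of H3C15 the level of 3 counts is at most 0.365 CPM, and the exact interval reaches 0.449 CPM in library 6. H4C14 had 4, 5, 0, 5, 11 and 7 counts and H4C15 had 6, 18, 4, 4, 6 and 2. These values stand as listed per copy, and the sums over copies are given after the comparison of their sequences. In all, these 4 genes held 0.635% to 1.66% of the counts of the 7 histone members, depending on the library.

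The transcripts of each such pair are almost the same sequence in release 44. H4C14 and H4C15 are identical over 396 nt, and H3C14 (522 nt) and H3C15 (518 nt) have an identity of 99.2%. In comparison, the H2A genes H2AC20 and H2AC21 have 79.3%. Reads of this study were 150 bases long, and stretches of this length were searched in the 25 assembled chromosome sequences of GRCh38, mitochondrial DNA included. Of the stretches in H3C14, H3C15, H4C14 and H4C15, 0 had a single site. Most had 2 sites, and 18 each in H3C14 and H3C15 had 3, with the additional one in the exon of H3C13, another H3 gene of the cluster. All 345 of H2AC20, all 348 of H2AC21 and all 2075 of H2BC21 had 1 site, as did 92.2% of those of the release 44 LETN transcript. That transcript is longer than the study's LETN, for which the share was not computed. Thus the 4 members without a unique stretch were those with a mean below 10 counts. The treatment of reads with several sites is not given in the sources used here, and its part in these low counts was not tested. Counts of the members of such a pair cannot be assigned to one copy or the other. Summed over the copies, H4C14 and H4C15 had 10, 23, 4, 9, 17 and 9 counts in libraries 1 to 6, and the highest values were in libraries 2 and 5. H3C14 and H3C15 together had 7, 9, 6, 2, 1 and 2 counts, with the highest values in libraries 1 and 2 and the lowest in libraries 4 to 6. The counting intervals of the H3 sums overlapped between all libraries, whereas the interval of the H4 sum in library 2 (1.635 to 3.87 CPM) lay above that in library 3 (0.125 to 1.18).

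**Figure D4:**
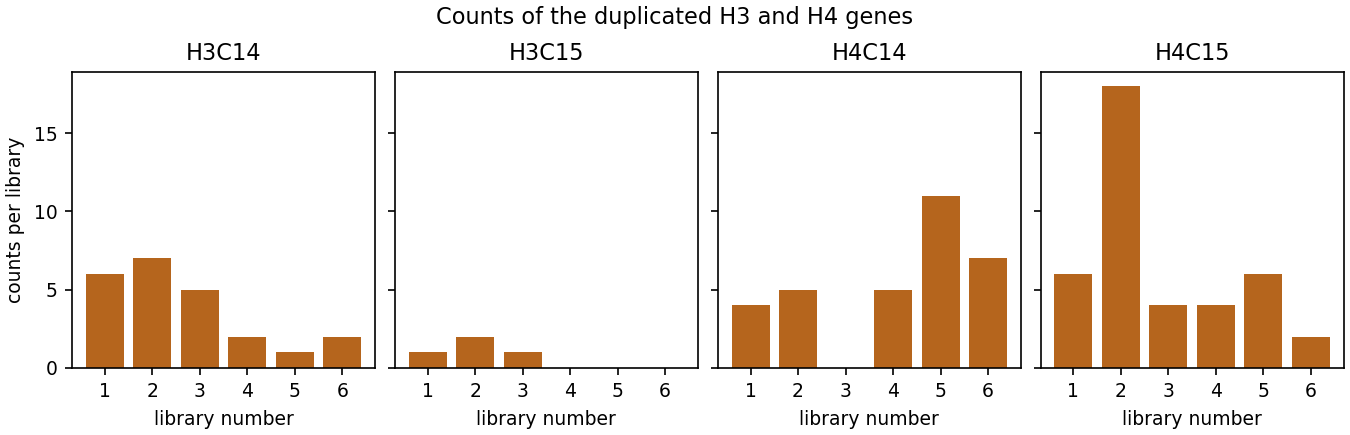
Counts (y axis, not scaled to depth) of H3C14, H3C15, H4C14 and H4C15 in libraries 1 to 6 (x axis). All values lie between 0 and 18, and library 2 of H4C15 has the highest.

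Other genes of the locus showed which of these patterns were shared. Of 10 further histone genes and pseudogenes listed for this cluster, 6 were matched in the table, and 2 of them had a mean of at least 10 counts. H2BC18 had 198 and 204 CPM in libraries 1 and 2, 102 and 104 in libraries 3 and 4, and 55.6 and 64.1 in libraries 5 and 6. H3C13, which shares some stretches with H3C14 and H3C15 so that reads there cannot be told apart, had 36.3, 32.5, 12.8, 12.9, 9.19 and 9.97 CPM in libraries 1 to 6. Both followed the order of H2AC20, with ratios of highest to lowest of 3.68 and 3.95. In contrast, of 9 matched non-histone genes on either side of the cluster, 5 had a mean of at least 10 counts, and 0 of them reached a ratio of 2. Among all genes with such a mean count, 35.1% reached this ratio and 15.6% followed the order. A flat level is therefore not particular to these genes. BOLA1, whose first exon overlaps the 5′ end of H2AC21 on the opposite strand, had 2.803 to 3.28 CPM, and OTUD7B had 64.1 to 68.2 CPM. The steps of the histone genes were not seen in these 5 genes.

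The 7 histone members together had 333, 327, 165, 158, 106 and 105 CPM in libraries 1 to 6. The 49 replication-dependent histone genes of chromosome 6 had a summed level of 4722, 4758, 1884, 1799, 1137 and 1149 CPM. Relative to its highest library, the sum of the members was 31.4% in library 6 and that of chromosome 6 was 24.1%. Of the 40 chromosome 6 genes with a mean of at least 10 counts, 39 had a ratio of highest to lowest of at least 2, with a median ratio of 4.71, and 35 followed the order of H2AC20. The exception to the ratio was H3C6 (1.53). Of all 13489 genes with such a mean count, 35.1% had such a ratio and 15.6% followed the order. Among 15 S phase genes, which stand for DNA replication, 12 passed a ratio of 2 (median 2.5) and 12 followed the same order. PCNA, the sliding clamp of the replication fork, had 232, 244, 140, 142, 81.9 and 83.8 CPM. The exceptions to the order were CDC6, a replication licensing gene, and the cyclin E genes. CCNE1 was highest in library 5 (19.95 CPM) and lowest in library 3 (8.50), and CCNE2 was lowest in library 4 (6.09). LETN also had its lowest values in libraries 3 and 4, but unlike CCNE1 it was highest in library 2. The share of all genes that were lowest in libraries 3 and 4 was not computed.

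**Figure D5:**
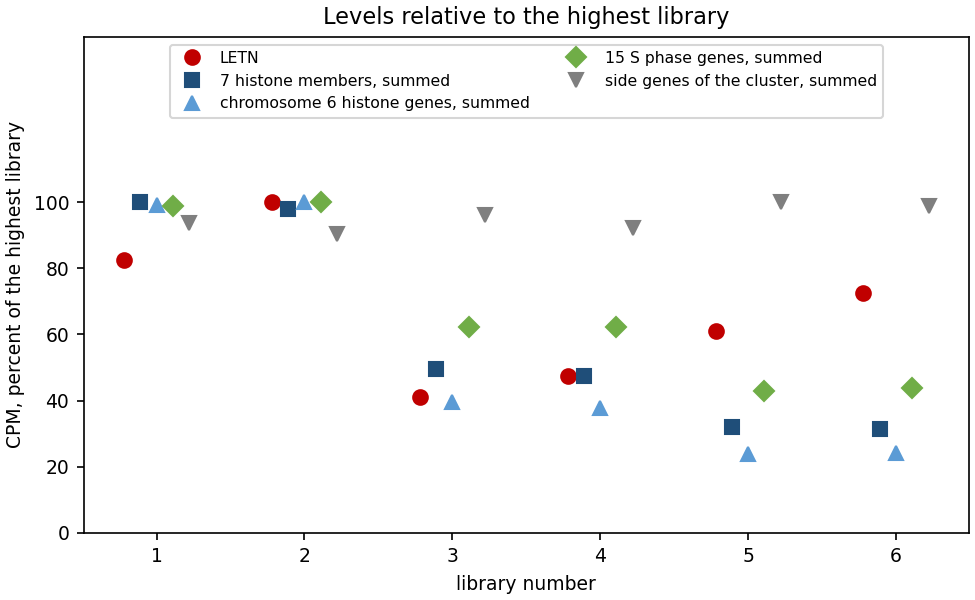
CPM as a percentage of the highest library (y axis) for LETN, the summed 7 histone members, the summed chromosome 6 histone genes, the summed S phase genes and the summed genes on either side of the cluster, in libraries 1 to 6 (x axis, points offset sideways for legibility). In libraries 5 and 6 LETN is at 61.1% and 72.5%, the histone members at 31.9% and 31.4%, and the genes on either side near their highest level.

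Of 19 genes for histone gene transcription and 3′ end processing, 1 reached a ratio of 2 (median 1.47) and 6 followed the order of H2AC20. The one past 2 was LSM11, a subunit of the U7 snRNP that cleaves histone pre-mRNA, with 35.3 CPM in library 1 and 16.7 in library 6. SLBP, which binds the stem-loop at the end of histone mRNAs, had 112, 113, 74.0, 77.9, 58.2 and 60.8 CPM, a ratio of 1.94. Of 13 genes for histone chaperones and NPM1 partners, 6 reached a ratio of 2 (median 1.7) and 10 followed the order. Of all 13489 genes with a mean of at least 10 counts, 35.1% reached this ratio (median 1.71) and 15.6% followed the order. The median ratio of the chaperone list was thus close to that of all genes. The largest ratio in this list was that of NPM1 (10.9), followed by ASF1A (4.03), which encodes an H3-H4 chaperone. NPM1 had 1660, 1700, 1645 and 1492 CPM in libraries 1 to 4, and 158 and 155 in libraries 5 and 6. These are the libraries with the highest ratios of LETN to the histone genes, and no siRNA was assigned to them from these values.

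Over the 6 libraries, the Pearson r of log2(CPM + 0.5) between H2AC20, H2AC21 and H2BC21 was 0.968 to 0.99, and that between LETN and each of them was 0.427 to 0.617. Since the libraries fall into 3 pairs, these values rest on few separate levels and are given as a description. Among 13588 other genes with a median of at least 1 CPM, the 5 most like LETN by this measure were SUMO3 (r = 0.996), THAP12 (0.994), PGRMC1 (0.993), PRR5 (0.992) and RFK (0.99). Their ranges differ in size. SUMO3, which encodes a small ubiquitin-like modifier, ranged only from 61.4 to 87.6 CPM, whereas RFK, the riboflavin kinase gene, ranged from 32.7 to 62.1 CPM. The 3 least like it were EPN1 (r = -0.996), ACAA2 (-0.994) and TULP4 (-0.993). EPN1, an endocytic adaptor gene, was highest in library 3 at 197 CPM, where LETN was lowest, and lowest in library 2 at 132 CPM.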

How the data were processed

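Total RNA was depleted of rRNA and sequenced from strand-specific libraries. Per the study's methods, the authors trimmed reads with Cutadapt and mapped read pairs to hg19 with STAR and an Ensembl annotation, and GEO's processing notes name STAR and hg19. The tool that counted reads per gene is not given in the sources used here. The authors deposited 1 table of raw counts, whole numbers per gene ID, with 6 value columns, whose numbering names no sample. All 6 were used and none was given an siRNA.

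From these counts, CPM by column total, exact 95% intervals, ratios within libraries and motif and uniqueness searches were computed with Python 3.11.15, pandas 2.3.3 and scipy 1.17.1. TMM sizes (edgeR 4.0.16) and DESeq2 1.42.0 size factors served as alternative scalings, and no count model was fitted. Symbols were matched by stable ID for 55482 of 60203 rows. The 4721 unmatched rows kept their IDs and their place in the column totals. The ratio and likeness calculations were tested on simulated data. The members and gene lists were chosen with earlier results of these data known. Named genes were the members, NPM1, the listed genes a result turned on, and the 5 most and 3 least like LETN.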

Additional observations from a re-analysis of the deposited data

Results flagged for a closer look

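In 1 of the 8 members a single library stood apart from the others. H4C15 had 2.02 CPM in library 2 (18 counts), and the next highest value was 0.747 CPM in library 1 (6 counts). The gap between these values was 0.716 of the whole range, above the 95% critical value of Dixon's test for 6 values. About 1 in 20 sets of independent, normally distributed values passes by chance, and 8 were examined. These are small counts from libraries that fall into 3 pairs, so that rate need not hold here. Counts cannot be assigned between H4C15 and the identical gene H4C14. Their sum had 2.58 CPM in library 2 (95% counting interval 1.635 to 3.87) and 1.66 CPM in library 5 (0.969 to 2.66), and these intervals overlapped.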

How the results depend on the processing

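With TMM library sizes, DESeq2 size factors or a total without mitochondrial and small structural RNA genes, the median of LETN was 16.9 to 17.3 CPM in place of 16.3, and its ratio of highest to lowest 2.43 to 2.44. The order of the libraries by LETN level was the same under these scalings. All 50 values under alternative scalings, filters, folds and pseudocounts, some of them chosen after the data were examined, stayed within the counting interval of the reported value or within 1.5 times a count or share. Some of them could hardly move. All 4 members with enough counts already passed a ratio of 2, so a fold of 1.5 could not change their number. The counting intervals of the duplicated H3 and H4 genes are wide. The share of genes with a ratio of at least 2 was 23.5% with a mean of at least 50 counts and 47.5% with at least 1 count in every library. With each library left out in turn, 68 of 72 values stayed within the counting interval of the reported value. The ratio of highest to lowest of H2AC21 then ranged from 3.62 (without library 6) to 4.61. The median of H3C15 ranged from 0 to 0.115 CPM, which is the level of 1 count in library 3. The duplicated H3 and H4 genes had few counts, and most differences between libraries were within their counting intervals.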
